A study of Mus musculus with 8 samples.

Results

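Toll-like receptors are membrane proteins that bind molecules of microbes and start inflammatory and antiviral gene expression. The 9 mouse genes examined here, Tlr1 to Tlr7, Tlr9 and Tlr13, were taken by name from the family, and a gene's value was that of the probe set to which the array's annotation gave that symbol alone. Of the 9, 8 had such a probe set, 1 each, among 19938 genes measured. Tlr5, the flagellin receptor, had none and was not analysed here. The values came from Affymetrix gene arrays of dendritic cell progenitors sorted from bone marrow, 8 arrays in all with 2 in each of 4 populations. The pre-CD8 arrays, from a progenitor that the labels do not define further, fall into an Id2-GFP+ and an Id2-GFP- class, as do the arrays of CDP, the usual short form of common dendritic cell progenitor. GFP is here a green fluorescent reporter of Id2 transcription. Source and description name an Id2-IRES-GFP reporter mouse for all 8 samples, and the stated purpose was to obtain signatures of the progenitors and their order in development. The genotype field names heterozygous Id2-IRES-GFP mice for the 2 Id2-GFP- CDP samples and heterozygous Zbtb46-GFP mice for the other 6, so each comparison with Id2-GFP- CDP also sets the 2 genotype entries against each other. The labels state no age of the mice, no sort gates and no pooling of animals. They do not say whether the 2 arrays of a group stem from different mice, and the p-values below therefore speak only of array-to-array spread, possibly technical.

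The receptors fall into groups by where they work and what they bind. Tlr1 and Tlr6 each pair with Tlr2 at the cell surface to bind bacterial lipopeptides, and Tlr4 binds lipopolysaccharide there. Tlr3, Tlr7, Tlr9 and Tlr13 work in endosomes and bind nucleic acids: Tlr3 binds RNA with paired strands, Tlr7 RNA with unpaired strands, Tlr9 DNA with unmethylated CpG, and Tlr13, in the mouse, a stretch of bacterial ribosomal RNA. Tlr3 signals through the adaptor Ticam1 (TRIF), the other endosomal receptors through Myd88, and Tlr4 through both. In mature mouse dendritic cells, Tlr3 is known for its high expression in the CD8+ conventional class (cDC1), while Tlr7 is known from plasmacytoid dendritic cells (pDC) and low in cDC1. Id2 is a helix-loop-helix protein that binds E proteins and keeps them from DNA.

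Because E proteins bind the E-box motif, the reference windows around the annotated starts of the receptors that were higher in Id2-GFP+ pre-CD8 are shown with each CANNTG in capitals. Each window runs from 250 bases before to 50 bases after a start, 5′ to 3′ on the gene's strand, from RefSeq on GRCm38.p6. The reference tables held 9 such windows for 7 of the 9 genes, and none was used for Tlr4 and Tlr7. Of the windows for Tlr1, the one shown is that of the more upstream start. The windows for Tlr3 and Tlr6 lie inside the annotated genes. The 5′ ends of these genes, at chr8:45411075 and chr5:64970942, lie outside them and were not searched.
Tlr3, chr8:45410331-45410630, minus strand: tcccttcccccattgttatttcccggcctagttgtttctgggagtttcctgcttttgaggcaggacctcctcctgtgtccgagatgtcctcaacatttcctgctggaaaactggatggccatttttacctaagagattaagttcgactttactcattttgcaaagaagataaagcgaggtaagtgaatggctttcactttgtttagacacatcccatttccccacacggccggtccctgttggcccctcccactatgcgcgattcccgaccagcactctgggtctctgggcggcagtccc
Tlr1, chr5:64933509-64933808, minus strand: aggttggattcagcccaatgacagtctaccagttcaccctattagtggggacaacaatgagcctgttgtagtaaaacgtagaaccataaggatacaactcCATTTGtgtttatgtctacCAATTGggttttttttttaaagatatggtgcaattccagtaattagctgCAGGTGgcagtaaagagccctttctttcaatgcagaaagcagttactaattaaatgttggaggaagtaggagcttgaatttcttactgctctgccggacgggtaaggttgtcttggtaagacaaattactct
Tlr9, chr9:106222348-106222647, plus strand: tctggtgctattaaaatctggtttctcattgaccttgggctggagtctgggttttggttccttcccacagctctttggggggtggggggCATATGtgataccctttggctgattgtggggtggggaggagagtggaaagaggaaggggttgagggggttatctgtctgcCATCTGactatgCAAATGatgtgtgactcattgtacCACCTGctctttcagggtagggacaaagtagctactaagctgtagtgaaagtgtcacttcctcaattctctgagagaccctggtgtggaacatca
Tlr13, chrX:106143025-106143324, plus strand: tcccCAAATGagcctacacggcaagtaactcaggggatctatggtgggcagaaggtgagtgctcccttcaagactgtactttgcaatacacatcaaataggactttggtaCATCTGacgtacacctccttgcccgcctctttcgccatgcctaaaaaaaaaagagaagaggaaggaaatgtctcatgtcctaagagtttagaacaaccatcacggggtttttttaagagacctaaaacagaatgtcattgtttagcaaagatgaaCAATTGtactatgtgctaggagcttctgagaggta
The Tlr3 window had 0 matches to CANNTG, the Tlr1 window shown had 3, the Tlr9 window 4 and the Tlr13 window 3. Of the windows not shown, the other Tlr1 window had 1 match, that of Tlr2 had 2, and those of Tlr5 and Tlr6 had 0. The motif reads the same on both strands, and 72.3% of 32851 mouse windows of this length held at least 1, with a median of 1 match. The AP-1 motif TGANTCA, which the cDC1 factor Batf3 can bind with Jun partners, matched once, in the Tlr9 window, and occurred in 7.81% of all windows. The interferon response core, GAAA and GAAA with 2 bases of any kind between them, was searched on both strands and matched only in a Tlr6 window, in 2 overlapping copies, against 3.44% of all windows. The ETS-IRF core, GGAA and GAAA with the same spacing, shares an arm with it and matched in none of the 9 windows, against 2.72%. A match describes these letters and is not evidence of binding.

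The arrays were first checked against their labels. Id2 had a log2 intensity of 10.69 and 10.99 in Id2-GFP+ pre-CD8, against 5.90 and 7.18 in Id2-GFP- pre-CD8, and of 9.77 and 9.26 in Id2-GFP+ CDP, against 5.14 and 6.30 in Id2-GFP- CDP. Flt3, the receptor that defines these progenitors, lay at log2 10.73 to 12.58 on all 8 arrays. Clec9a, a cDC1 receptor, lay at 9.78 and 10.55 in the Id2-GFP+ class of pre-CD8, against 5.47 and 6.28 in the Id2-GFP- class. In CDP the classes overlapped, at 9.01 and 9.52 in Id2-GFP+ cells, against 8.92 and 9.65 in Id2-GFP- cells. Clec9a does not stand for all cDC1 markers. Cd226, Naaa and Batf3 averaged log2 8.22, 10.18 and 8.63 in Id2-GFP+ CDP, against 4.84, 7.63 and 6.98 in Id2-GFP- CDP. Of the 10 cDC1 markers listed, 3 rose and 0 fell in CDP by the test used below. In pre-CD8 6 rose and 0 fell, but the classes overlapped for Xcr1, Itgae and Cd8a. Xcr1 averaged 5.25 in Id2-GFP+ pre-CD8, against 5.01 in Id2-GFP- pre-CD8. Mean linear intensity was 461 to 478 on the brighter array of each group and 402 to 414 on the dimmer one. Replicates correlated across genes with r of 0.984 to 0.989, and each of the 4 Id2-GFP+ arrays lay nearest to the Id2-GFP+ array of the other stage with the same replicate number (r of 0.992 and 0.990), not to its own replicate. The arrays of each such pair are also of like brightness. Differences within the brighter and the dimmer arrays are therefore given beside the results. Each sets single arrays against each other, with no test. The brightness classes, also used below as a block in the fit, were set from the mean intensity of these same arrays. A pass gained only with that block is therefore not independent support for a difference.

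**Figure D1:**
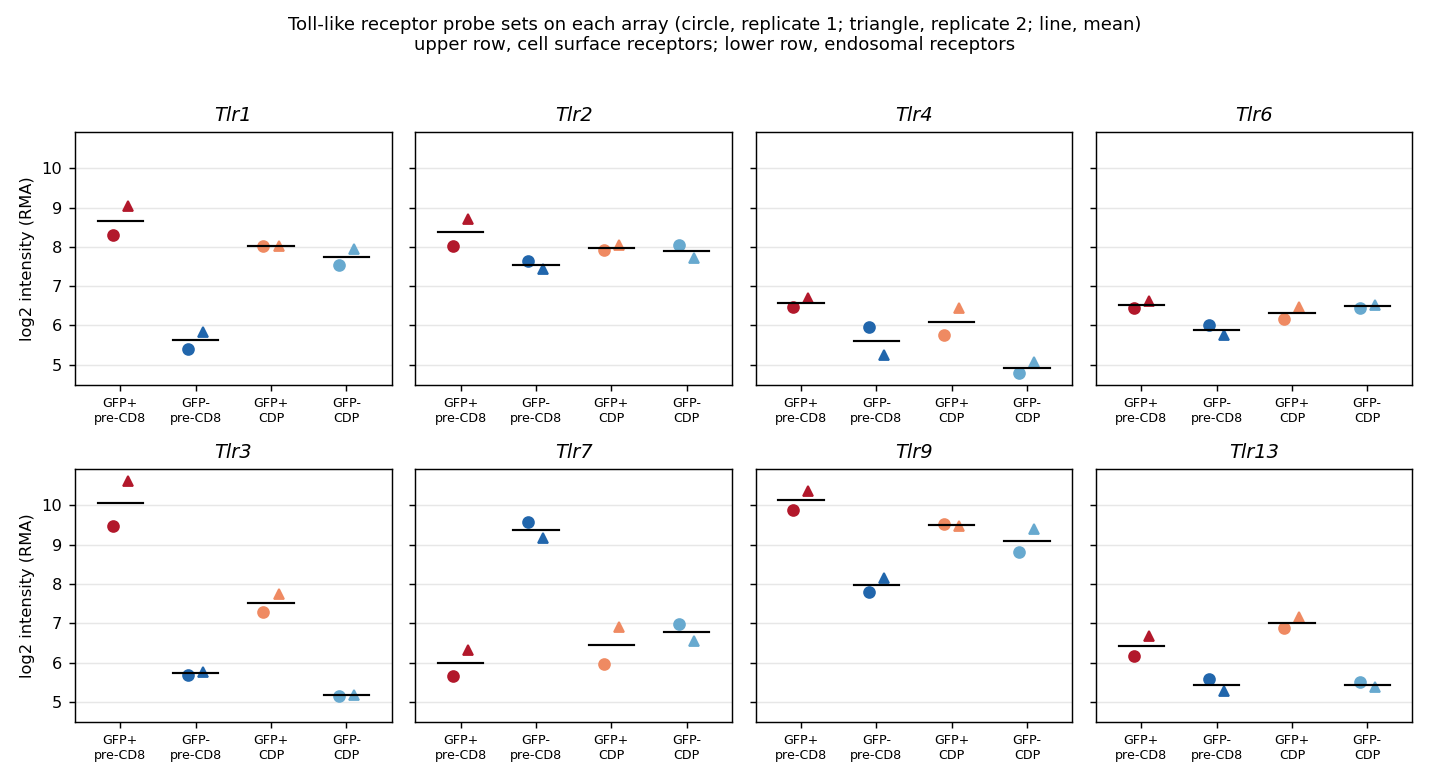
Each panel plots the log2 intensity of 1 receptor's probe set on all 8 arrays, by population, with a circle for replicate 1, a triangle for replicate 2 and a line at the mean of the 2 arrays. Tlr7 is high in Id2-GFP- pre-CD8, where Tlr1 and Tlr9 have their lowest values, and Tlr3 reaches its highest values in Id2-GFP+ pre-CD8. Heights of different probe sets are not comparable with each other.

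Among pre-CD8 cells, Tlr3 and Tlr1 were higher and Tlr7 was lower in the Id2-GFP+ class, and Tlr9 and Tlr13 were also higher. Tlr3 differed 20.0-fold, Tlr7 10.4-fold in the opposite direction and Tlr1 8.28-fold. By limma, with p-values adjusted over all 19938 genes and a threshold of 0.05, 4 of the 8 receptors rose and 1 fell. Over all genes 3.57% rose and 2.7% fell, 6.26% in all. The median difference of the 8 receptors was log2 0.98, against -0.01 over all genes. That Tlr3 and Tlr1 differ in direction from Tlr7 here was known from earlier results of these data, so these tests are not independent evidence of it. The 4 pre-CD8 samples carry the same genotype entry.

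Of the endosomal receptors, Tlr3 had a log2 intensity of 9.48 and 10.63 in Id2-GFP+ pre-CD8, against 5.69 and 5.77 in Id2-GFP- pre-CD8. The groups did not overlap, although the Id2-GFP+ arrays lay more than 1 log2 unit apart. The difference was log2 4.32 ± 0.35 (SE of the limma fit, n = 2 arrays each), with an adjusted p of 0.000674, and it was 4.94 on the brighter and 3.70 on the dimmer arrays. Tlr7 had 5.66 and 6.33 in Id2-GFP+ pre-CD8, against 9.57 and 9.17 in Id2-GFP- pre-CD8. Both Id2-GFP- arrays lay far above both Id2-GFP+ arrays, the reverse of Tlr3. Tlr7 fell by 3.38 ± 0.36 on the log2 scale (adjusted p 0.00178 by limma), with -3.24 on the brighter and -3.52 on the dimmer arrays. Tlr9 had 9.88 and 10.37 in Id2-GFP+ pre-CD8, against 7.79 and 8.16 in Id2-GFP- pre-CD8. Tlr9, which like Tlr7 is a receptor of pDC, thus moved with Tlr3, rising by log2 2.15 ± 0.27 (adjusted p 0.00339 by limma). Tlr13 had 6.16 and 6.69 in Id2-GFP+ pre-CD8, against 5.58 and 5.29 in Id2-GFP- pre-CD8. It rose by log2 0.98 ± 0.22 (adjusted p 0.0373 by limma), a smaller change. Its call was lost without Id2-GFP+ pre-CD8 replicate 2 or without any 1 of the 4 Id2-GFP- arrays, with the replicate block, and with the pre-CD8 groups fitted alone (adjusted p up to 0.250). The calls of Tlr1, Tlr3, Tlr7 and Tlr9 held without each array in turn.

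Of the cell surface receptors, Tlr1 had 8.29 and 9.05 in Id2-GFP+ pre-CD8, against 5.40 and 5.84 in Id2-GFP- pre-CD8. The groups did not overlap, and Tlr1 rose by log2 3.05 ± 0.29 (adjusted p 0.00124 by limma), with 3.65 on the brighter and 2.45 on the dimmer arrays. Tlr6, the close paralog of Tlr1 that also pairs with Tlr2, had 6.44 and 6.61 in Id2-GFP+ pre-CD8, against 6.02 and 5.75 in Id2-GFP- pre-CD8. Its difference of log2 0.64 ± 0.19 did not pass (adjusted p 0.0954 by limma). Tlr1 and Tlr6 are neighbours on chromosome 5, with 0 annotated genes starting between them in the RefSeq table. Probe sequences were not examined, and probes for close paralogs may pick up both transcripts. The separate values of Tlr1 and Tlr6 are therefore uncertain, and the difference between their responses was not tested. Tlr2, the shared partner, had 8.03 and 8.71 in Id2-GFP+ pre-CD8, against 7.64 and 7.43 in Id2-GFP- pre-CD8. Its difference of log2 0.84 ± 0.26 did not pass (adjusted p 0.125 by limma). Tlr4 had 6.47 and 6.69 in Id2-GFP+ pre-CD8, against 5.95 and 5.26 in Id2-GFP- pre-CD8. Its difference of log2 0.98 ± 0.29 did not pass either (adjusted p 0.109 by limma). All 3 passed with the brighter and dimmer arrays as a block (adjusted p of 0.00563 for Tlr6, 0.00164 for Tlr2 and 0.00587 for Tlr4 by limma), and Tlr6 and Tlr2 passed with quantile normalization (0.0331 and 0.0132). Of all genes 4822 passed with the block and 2567 with quantile normalization, against 1249.

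**Figure D2:**
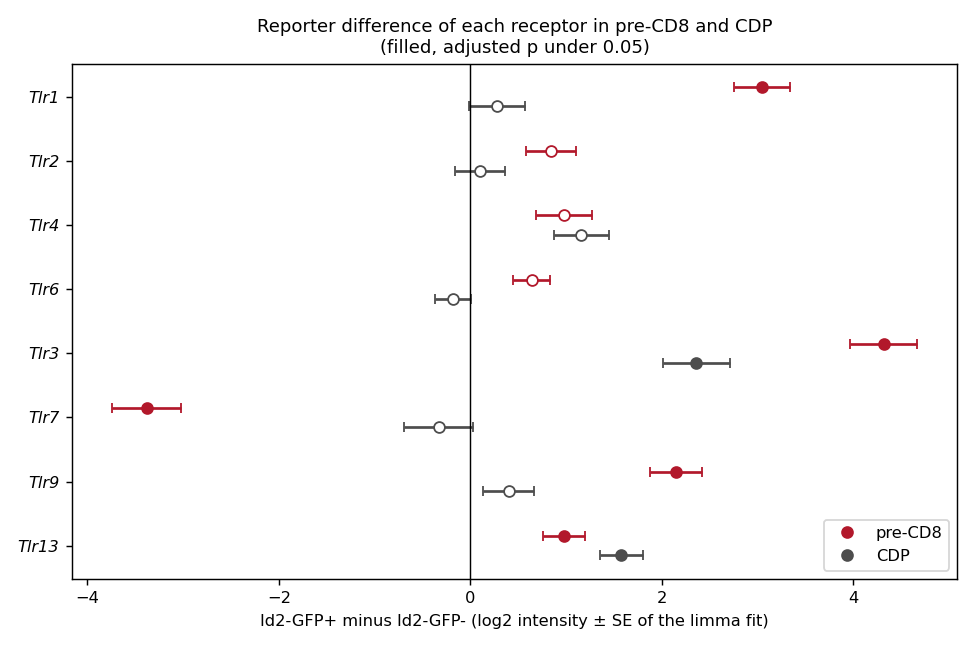
The horizontal axis is the log2 difference of Id2-GFP+ minus Id2-GFP- for each receptor, with bars of 1 SE from limma, in pre-CD8 (red) and in CDP (grey); filled points passed an adjusted p of 0.05. In pre-CD8 7 of the 8 receptors lie right of 0 and Tlr7 lies at -3.38; in CDP the filled points are Tlr3 at 2.36 and Tlr13 at 1.58.

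Several lists of other cell types moved in the same comparison. Of 10 cDC1 markers 6 rose and 0 fell, and their summed linear intensity was 16906 and 22495 with the reporter, against 5827 and 6899 without it. Of 9 measured B lineage markers 4 fell and 0 rose (Blnk, Ebf1, Rag1 and Vpreb1), with sums of 783 and 784 on the Id2-GFP+ arrays, against 2163 and 3260 on the Id2-GFP- arrays. Their defining markers Cd79a and Pax5 averaged log2 4.96 and 5.73 with the reporter, against 5.30 and 6.47 without it. Of 8 measured pDC markers 3 fell and 0 rose (Ccr9, Cox6a2 and Tcf4), with sums of 4284 and 5080 on the Id2-GFP+ arrays, against 5800 and 7778 on the Id2-GFP- arrays. Siglech, a defining gene of pDC, did not pass, at 7.84 and 7.81 on the Id2-GFP+ arrays, against 8.53 and 10.44 on the Id2-GFP- arrays. Of 10 neutrophil and granule markers 7 rose and 1 fell, with sums of 40019 and 45586 on the Id2-GFP+ arrays, against 12726 and 15831 on the Id2-GFP- arrays. Of 9 measured monocyte and macrophage markers 5 rose and 1 fell, with sums of 11092 and 11797 on the Id2-GFP+ arrays, against 2905 and 3190 on the Id2-GFP- arrays. Of 6 CDP and progenitor markers 2 rose and 3 fell. For T, NK and ILC markers 1 of 9 rose, and for erythroid and megakaryocyte markers 0 of 6 changed. The lowest intensity of any probe set was 5.025, so no marker was at 0. With no detection call used, a value above 0 does not show that a marker was expressed. The part of these cell types in the receptor values was not tested, and in such sorted bulk samples fewer cells of a type and less RNA per cell cannot be told apart.

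Among CDP, Tlr3 and Tlr13 rose in Id2-GFP+ CDP, 2 of 8, and 0 fell; over all genes 0.597% rose and 0 fell. The median difference of the receptors was log2 0.34, against -0.0016 over all genes. Tlr3 had 7.30 and 7.75 in Id2-GFP+ CDP, against 5.15 and 5.18 in Id2-GFP- CDP. The 2 groups were well apart, and the difference was log2 2.36 ± 0.35, or 5.13-fold (adjusted p 0.0308 by limma), with 2.60 on the brighter and 2.11 on the dimmer arrays. Tlr13 had 6.89 and 7.15 in Id2-GFP+ CDP, against 5.50 and 5.37 in Id2-GFP- CDP. It rose by log2 1.58 ± 0.22, or 3.0-fold (adjusted p 0.0234 by limma), with 1.65 and 1.52 on the brighter and the dimmer arrays. Leaving out any 1 of the 4 CDP arrays or Id2-GFP- pre-CD8 replicate 1 ended the Tlr3 call (adjusted p up to 0.239). Leaving out replicate 2 of Id2-GFP+ CDP or either Id2-GFP- CDP array, or the replicate block, ended the Tlr13 call (up to 0.161). Tlr4 had 5.75 and 6.44 in Id2-GFP+ CDP, against 4.79 and 5.07 in Id2-GFP- CDP. Its difference of log2 1.16 ± 0.29 did not pass (adjusted p 0.274 by limma), but it passed with the brighter and dimmer arrays as a block (adjusted p 0.00872).

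Tlr7, Tlr1 and Tlr9, which passed in pre-CD8, did not pass between the CDP classes. Tlr7 had 5.97 and 6.90 in Id2-GFP+ CDP, against 6.98 and 6.55 in Id2-GFP- CDP, so that the groups overlapped, with a difference of log2 -0.33 ± 0.36. Tlr1 had 8.02 and 8.03 in Id2-GFP+ CDP, against 7.55 and 7.94 in Id2-GFP- CDP, a difference of 0.28 ± 0.29. Tlr9 had 9.52 and 9.49 in Id2-GFP+ CDP, against 8.82 and 9.39 in Id2-GFP- CDP, a difference of 0.40 ± 0.27. Tlr2 and Tlr6 differed by 0.10 ± 0.26 and -0.18 ± 0.19, with overlapping groups. All 5 adjusted p-values were 1.00 by limma, which does not show that the classes were alike. Beside these values, 7 of 10 neutrophil and granule markers rose in Id2-GFP+ CDP and 0 fell, with sums of 57024 and 83429 there, against 15659 and 25602 in Id2-GFP- CDP, and 3 of 10 cDC1 markers and 2 of 9 monocyte and macrophage markers rose. Their part in the Tlr3, Tlr13 and Tlr4 values was not tested.

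Whether the reporter difference was larger in pre-CD8 than in CDP was tested for each receptor as the difference of the 2 differences. By limma 0 of the 8 receptors passed, against 0.145% of all genes (0.0351% positive and 0.11% negative), although 5 receptors and 1227 of all genes had an unadjusted p under 0.05. The median was log2 0.78, against -0.00712 over all genes. The estimates were log2 2.77 ± 0.41 for Tlr1 (adjusted p 0.0700), -3.04 ± 0.51 for Tlr7 (0.0879), 1.75 ± 0.39 for Tlr9 (0.187), 1.96 ± 0.49 for Tlr3 (0.261), 0.82 ± 0.26 for Tlr6 (0.445) and 0.74 ± 0.37 for Tlr2 (0.955). On the brighter and the dimmer arrays the Tlr7 estimate was -3.16 and -2.93, and that of Tlr1 was 3.17 and 2.37. With the brighter and dimmer arrays as a block 5 receptors passed, among them Tlr7 at an adjusted p of 4.39e-05 and Tlr1 at 0.000873, and with quantile normalization 3 passed, while 1492 and 202 of all genes did, against 29. Tlr13, at -0.60 ± 0.31, and Tlr4, at -0.19 ± 0.42, had a smaller estimated reporter difference in pre-CD8 than in CDP, with no pass.

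Averaged over both stages, Id2-GFP+ cells had more of Tlr3, Tlr1, Tlr13, Tlr9 and Tlr4 and less of Tlr7 than Id2-GFP- cells. Thus 6 of 8 receptors passed, 5 higher and 1 lower, against 6.32% of all genes, 3.83% higher and 2.49% lower, and their median was log2 1.17, against 6.01e-05 over all genes. The contrast of Tlr3 and Tlr1 with Tlr7 was known from earlier results of these data, so these counts are not independent evidence of it. For Tlr1, Tlr9 and Tlr7 only the pre-CD8 difference passed by itself, and those in CDP were log2 0.28, 0.40 and -0.33. Their averages therefore do not show a difference within CDP. The averages were log2 3.34 ± 0.25 for Tlr3, 1.66 ± 0.21 for Tlr1, 1.28 ± 0.16 for Tlr13, 1.27 ± 0.19 for Tlr9, 1.07 ± 0.21 for Tlr4 and -1.85 ± 0.25 for Tlr7. Their adjusted p-values by limma ran from 0.000327 for Tlr3 to 0.0211 for Tlr4. Without an array in turn, Tlr4 lost its call in 3 of 8 cases (adjusted p up to 0.0860), and the other 5 kept theirs. Tlr2 and Tlr6 did not pass, at 0.47 ± 0.19 and 0.23 ± 0.13. Tlr2 did pass with the brightness block (adjusted p 0.00661 by limma) and with quantile normalization (0.0262).

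Between the stages, pre-CD8 was set against CDP within each reporter class. Among Id2-GFP- cells Tlr7 rose and Tlr1 fell in pre-CD8, 2 of 8 receptors, against 1.63% of all genes, 1.03% higher and 0.592% lower. The median of the receptors was log2 -0.18, against -0.00461 over all genes. Tlr7 had 9.57 and 9.17 in Id2-GFP- pre-CD8, against 6.98 and 6.55 in Id2-GFP- CDP, a difference of log2 2.60 ± 0.36, or 6.08-fold. Tlr1 had 5.40 and 5.84 in Id2-GFP- pre-CD8, against 7.55 and 7.94 in Id2-GFP- CDP, and fell by 2.12 ± 0.29 on the log2 scale. Both had an adjusted p of 0.0128 by limma and did not overlap between the groups. Within the brighter and the dimmer arrays the Tlr7 difference was 2.58 and 2.62 and that of Tlr1 -2.15 and -2.10. Both calls ended when replicate 1 of Id2-GFP- pre-CD8 or any of the Id2-GFP- CDP arrays was left out, with adjusted p-values of up to 0.117 for Tlr7 and 0.119 for Tlr1. Tlr9 had 7.79 and 8.16 in Id2-GFP- pre-CD8, against 8.82 and 9.39 in Id2-GFP- CDP, but its difference of -1.13 ± 0.27 did not pass (adjusted p 0.109 by limma; 0.00372 with the brightness block). In this comparison 6 of 9 monocyte and macrophage markers fell and 0 rose, with sums of 2905 and 3190 on the pre-CD8 arrays, against 11340 and 12685 on the CDP arrays. Of 9 B lineage markers 3 rose, with sums of 2163 and 3260 on the pre-CD8 arrays, against 972 and 998 on the CDP arrays. Of 8 measured pDC markers 1 rose and 0 fell, with sums of 5800 and 7778 on the pre-CD8 arrays, against 5701 and 6582 on the CDP arrays. For cDC1 markers 1 of 10 fell, for neutrophil and granule markers 1 of 10, and for CDP and progenitor markers 2 of 6. The part of these cell types was not tested. The other receptors did not pass: Tlr4 differed by 0.67 ± 0.29, Tlr6 by -0.61 ± 0.19, Tlr3 by 0.57 ± 0.35 and Tlr2 by -0.35 ± 0.26, while Tlr13 had 5.58 and 5.29 in pre-CD8, against 5.50 and 5.37 in CDP.

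Among Id2-GFP+ cells 0 of the 8 receptors and 0 of all genes passed between the stages by limma, with 2 receptors and 643 genes at an unadjusted p under 0.05 and a median of log2 0.44, against -0.00894 over all genes. Tlr3 had 9.48 and 10.63 in Id2-GFP+ pre-CD8, against 7.30 and 7.75 in Id2-GFP+ CDP. The arrays did not overlap, and the difference of log2 2.53 ± 0.35 had an unadjusted p of 7.77e-05 and an adjusted p of 0.110. It was 2.88 on the brighter and 2.18 on the dimmer arrays, and passed with quantile normalization (adjusted p 0.0235) and with the brightness block (0.000776). Tlr13 was the other receptor with an unadjusted p under 0.05, at -0.60 ± 0.22. The remaining receptors lay between -0.44 ± 0.36 for Tlr7 and 0.65 ± 0.29 for Tlr1.

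The order of the 4 populations thus differed between receptors. Tlr3 ran from Id2-GFP+ pre-CD8 (10.05 ± 0.81, SD, n = 2) through Id2-GFP+ CDP (7.53 ± 0.32) and Id2-GFP- pre-CD8 (5.73 ± 0.06) to Id2-GFP- CDP (5.17 ± 0.03). Of its neighbouring populations only Id2-GFP- pre-CD8 against Id2-GFP+ CDP passed, at log2 -1.79 ± 0.35 (adjusted p 0.0238 by limma). In that comparison, which crosses stage and class, 1 receptor was higher in Id2-GFP- pre-CD8 and 4 were lower, against 4.89% of all genes, 2.08% higher and 2.81% lower. Tlr1, Tlr7 and Tlr13 kept their calls there without each array in turn, and Tlr3 lost its call without any 1 of the 4 arrays compared (adjusted p up to 0.115). Tlr9 lost its call without either Id2-GFP+ CDP array or without replicate 1 of Id2-GFP- pre-CD8 (adjusted p up to 0.106). Other cell types' markers moved too: 8 of 10 neutrophil and granule, 8 of 9 monocyte and macrophage and 4 of 10 cDC1 markers were lower in Id2-GFP- pre-CD8, and 4 of 9 B lineage and 2 of 8 pDC markers were higher. The part of these cell types was not tested. Tlr7 stood high in Id2-GFP- pre-CD8 alone (9.37 ± 0.28), with 6.0 ± 0.48 in Id2-GFP+ pre-CD8, 6.44 ± 0.66 in Id2-GFP+ CDP and 6.77 ± 0.30 in Id2-GFP- CDP, and among these 3 no neighbours passed. Tlr1 had 8.67 ± 0.54 in Id2-GFP+ pre-CD8, 5.62 ± 0.31 in Id2-GFP- pre-CD8, 8.02 ± 0.00 in Id2-GFP+ CDP and 7.75 ± 0.28 in Id2-GFP- CDP, so that Id2-GFP- pre-CD8 stood low and the other populations did not differ from their neighbours beyond the test. Tlr9 followed the same order, at 10.13 ± 0.35, 7.97 ± 0.27, 9.50 ± 0.02 and 9.10 ± 0.40 in the same populations, with no neighbours passing. Tlr13 had its highest mean in Id2-GFP+ CDP (7.02 ± 0.19), then Id2-GFP+ pre-CD8 (6.42 ± 0.38), with means of 5.44 ± 0.21 and 5.43 ± 0.09 in the Id2-GFP- classes of pre-CD8 and CDP. Its neighbours passed between the pre-CD8 classes, as given above. Tlr4 ran from 6.58 ± 0.16 in Id2-GFP+ pre-CD8 over 6.10 ± 0.49 in Id2-GFP+ CDP and 5.61 ± 0.49 in Id2-GFP- pre-CD8 to 4.93 ± 0.20 in Id2-GFP- CDP; no neighbours passed, but the ends did, at log2 1.65 ± 0.29 (adjusted p 0.0339 by limma). Between these ends 2 receptors were higher in Id2-GFP+ pre-CD8, Tlr3 (4.89 ± 0.35) and Tlr4, and 0 lower, against 1.79% of all genes, 1.39% higher and 0.401% lower. Tlr3 kept this call without each array in turn, while Tlr4 lost it without any 1 of the 4 arrays compared and with the replicate block (adjusted p up to 0.271). There 6 of 10 neutrophil and granule, 3 of 9 monocyte and macrophage and 4 of 10 cDC1 markers were higher and 2, 2 and 0 lower, and their part was not tested either. Tlr2 and Tlr6 spanned log2 0.84 and 0.64 over the 4 population means, against 4.88 for Tlr3, and no neighbours passed.

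The signalling and helper genes of the pathway, from lists chosen with earlier results known, came next. Of 66 such genes listed, 61 were measured, and in Id2-GFP+ against Id2-GFP- pre-CD8 7 rose and 1 fell, with a median difference of log2 0.04, against 3.57% higher and 2.7% lower over all genes. In CDP 0 of the 61 passed, with a median of 0.06, against 0.597% of all genes. Irf5, a transcription factor activated through Myd88, rose by log2 2.06 ± 0.23 in Id2-GFP+ pre-CD8 (adjusted p 0.00208 by limma), with 10.16 and 10.71 in Id2-GFP+ cells against 8.33 and 8.42 in Id2-GFP- cells. Irak2, a kinase of the Myd88 complex, rose by 1.34 ± 0.24 and Tirap, which brings Myd88 to Tlr2 and Tlr4, by 0.77 ± 0.18. Irf8, a factor of cDC1 that also acts after Tlr9 and stands among the cDC1 markers too, rose by 1.14 ± 0.22. Cd180, a receptor relative that binds Ly86, rose by 1.49 ± 0.34. Ctss and Lgmn, proteases that can cleave endosomal receptors, rose by 1.14 ± 0.20 and 0.91 ± 0.21. Il12a, the p35 chain of interleukin 12 and a gene induced through these receptors, fell by 3.39 ± 0.36 (adjusted p 0.00177 by limma), at 7.27 and 6.65 in Id2-GFP+ pre-CD8 against 10.16 and 10.52 in Id2-GFP- pre-CD8. Irf5 and Il12a kept their calls under all 15 alternatives, but Lgmn and Tirap lost theirs under 9 each, Cd180 under 6, and Irak2, Irf8 and Ctss under 3 each.

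Unc93b1, Myd88 and Ticam1, which serve several receptors, did not pass in that comparison. Unc93b1 carries endosomal receptors out of the endoplasmic reticulum and differed by 0.89 ± 0.28 (adjusted p 0.130 by limma). Myd88 differed by 0.60 ± 0.35 and Ticam1, the adaptor of Tlr3, by 0.01 ± 0.21. None of the 9 inhibitors listed passed. By list, 1 of 6 adaptors, 1 of 11 measured kinases and ubiquitin ligases, 2 of 9 measured transcription factors, 1 of 6 co-receptors and 2 of 10 folding, trafficking and cleavage genes rose, and 1 of 10 induced cytokines fell. Over all genes 6.26% passed in that comparison. Between the stages in Id2-GFP- cells 1 of the 61 passed, near the 1.63% of all genes: Cd14, the co-receptor that hands lipopolysaccharide to Tlr4, fell by 1.03 ± 0.16 in pre-CD8 (adjusted p 0.0228 by limma), a call lost without any 1 of the 4 Id2-GFP- arrays and with the groups fitted alone. Averaged over both stages 4 of the 61 rose and 1 fell, against 6.32% of all genes. In Id2-GFP+ pre-CD8 against Id2-GFP- CDP 3 rose and 1 fell, against 1.79%. Among the 3 was Irf7 at log2 2.13 ± 0.37 (adjusted p 0.031 by limma), a call lost without 3 of the arrays in turn. In Id2-GFP- pre-CD8 against Id2-GFP+ CDP 1 rose and 3 fell, against 4.89%.

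Of the other mouse Toll-like receptors, Tlr12, an endosomal receptor of protozoan profilin, and Tlr8, the neighbour of Tlr7, were measured. Tlr12 had 8.49 and 8.94 in Id2-GFP+ pre-CD8, against 5.71 and 6.49 in Id2-GFP- pre-CD8. It rose by log2 2.62 ± 0.35, or 6.14-fold (adjusted p 0.00407 by limma), in the direction opposite to Tlr7. Tlr8 had 4.12 and 4.29 in Id2-GFP+ pre-CD8, against 3.77 and 3.75 in Id2-GFP- pre-CD8, a difference of 0.44 ± 0.25 that did not pass. Tlr7 and Tlr8 lie next to each other on the X chromosome, with 0 annotated genes starting between them, and Tlr8 was at its highest in Id2-GFP+ CDP (4.89 and 5.71), where Tlr7 was not.

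**Figure D3:**
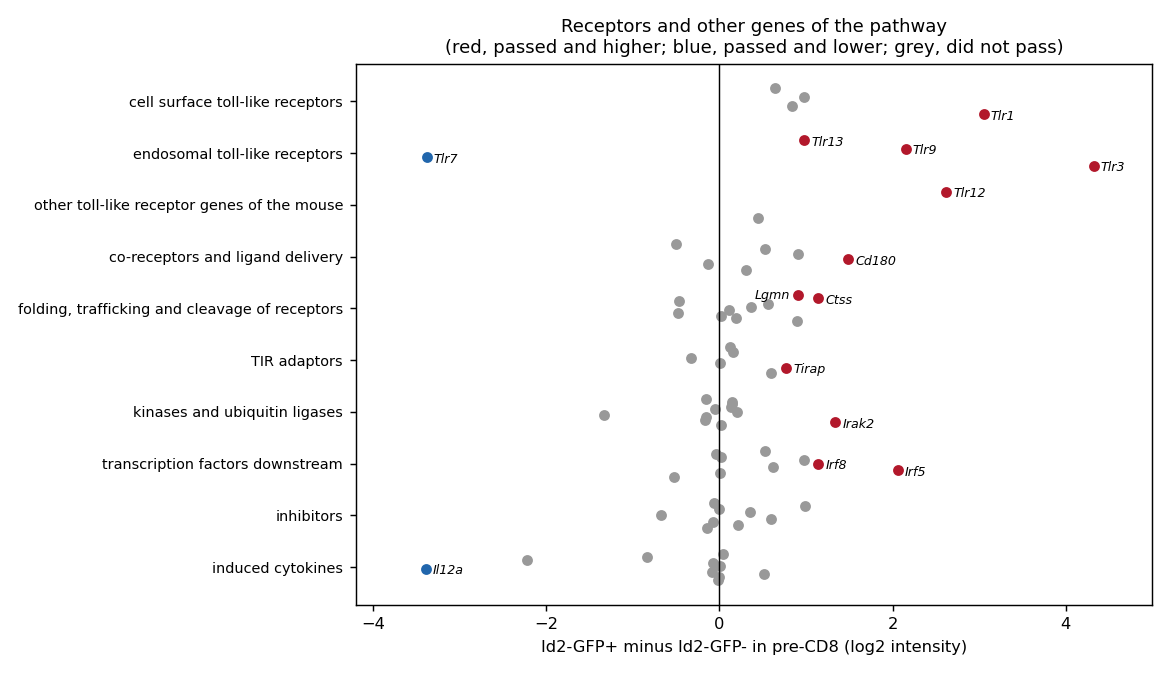
Each point is 1 gene, placed by its log2 difference of Id2-GFP+ minus Id2-GFP- in pre-CD8 and grouped by its role, with genes that passed named and coloured (red higher, blue lower). The receptors spread from -3.38 (Tlr7) to 4.32 (Tlr3), while most points of the signalling lists lie within 1 log2 unit of 0.

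The genes with the pattern nearest to each receptor were found by the root mean square difference between log2 values over the 8 arrays after subtracting each gene's mean, among 17096 genes. Arrays of 1 group share a sort and arrays of 1 brightness class share their scale, so a small distance is a description. Nearest to Tlr3 were Ciita (0.304), the master regulator of MHC class II genes, H2-Eb1 (0.307) and H2-Ab1 (0.447), chains of MHC class II, and Slc46a3 (0.342), a lysosomal membrane transporter. Nearest to Tlr1 were Cyp27a1 (0.108), a sterol hydroxylase, Ctsh (0.236), a lysosomal protease, Rassf4 (0.267) and Kctd14 (0.280). Nearest to Tlr7 were Arpp21 (0.221), Sstr2 (0.222), a somatostatin receptor, Gimap9 (0.281), a GTPase of lymphoid cells, and Slc18a1 (0.288), a vesicular monoamine transporter. Sstr2 had group means of 6.17 in Id2-GFP+ pre-CD8, 9.47 in Id2-GFP- pre-CD8, 6.22 in Id2-GFP+ CDP and 6.54 in Id2-GFP- CDP, close to the steps of Tlr7. Nearest to Tlr9 were Nptn (0.101), Tubb2a (0.154), Jaml (0.192) and Ahnak (0.194), to Tlr13 Mmp25 (0.161), Dgat2 (0.172), Mocos (0.190) and Fcna (0.197), and to Tlr4 Kdm7a (0.204), Iqsec1 (0.213), Herc3 (0.231) and Apobr (0.251). No gene was among the 4 nearest of more than 1 receptor.

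**Figure D4:**
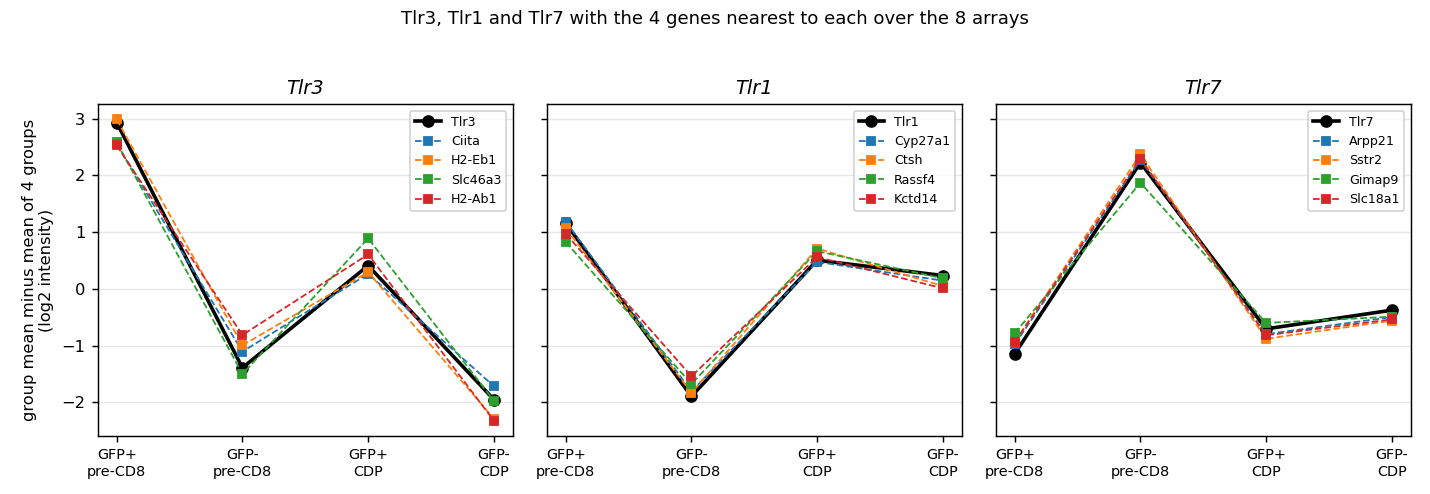
Lines join the 4 population means of Tlr3, Tlr1 and Tlr7 (black) and of the 4 genes nearest to each (dashed), each minus its mean over the populations, on a log2 scale. The 3 receptors have different shapes: Tlr3 and its neighbours are high in Id2-GFP+ pre-CD8 and lowest in Id2-GFP- CDP, Tlr1 and its neighbours are low in Id2-GFP- pre-CD8, and Tlr7 and its neighbours are high there.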

How the data were processed

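Messenger RNA of 8 samples in 4 groups of 2, taken from the titles, was measured on Affymetrix mouse gene arrays. The deposited intensity values, on a linear scale for 28853 probe sets, were made by the authors with RMA in Affymetrix Expression Console, per the submitters' processing notes; versions are not given in the sources used here. RMA corrects background, normalises between arrays and summarises probes, so that differences of dim genes are understated, and no detection call was used. The deposited arrays still differed in spread, with an interquartile range from log2 3.15 to 3.73, and the reason was not tested. Log2 was taken with no further normalization. The annotation gave 1 symbol to 21789 probe sets; per gene the brightest over the 8 arrays was kept, 19938 genes.

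Differences were tested with limma 3.58.1 in R 4.3.3: 4 group means in 1 fit, variance prior with an intensity trend, no filter, two-sided, Benjamini-Hochberg over all genes, threshold 0.05, with 4 residual degrees of freedom. With 2 arrays a group, their number sets the precision. The fit was tried on simulated data with independent noise for each gene and array. These lack the brightness that the real arrays share, so the trial cannot speak to its effect. Alternatives were quantile normalization, leaving out the dimmest genes, no trend, the mean of all probe sets, both blocks, each pair of groups alone, and each array left out.

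Named were the 9 receptors, Tlr8, Tlr12, Unc93b1, Myd88 and Ticam1, and the 4 genes nearest to each receptor whose group means spanned at least 1.5 log2. Pathway genes were named where they passed between the pre-CD8 classes or between the stages in Id2-GFP- cells (at most 6 per list, by p). For the other comparisons their counts and Irf7 are given. Members, lists and tests were chosen with earlier results of these data known.

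Replicate numbers do not pair the samples across all 4 groups. Deviations of same-numbered arrays correlated positively in the 2 pairs of groups that share a reporter class (r of 0.71 and 0.69). They correlated negatively in the 4 pairs that cross classes (r down to -0.69). Within a class the numbers also follow brightness, and the main fit took no pairing into account. Irak4, Traf3, Chuk, Ripk1 and Nfkb1 were not analysed here.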

Additional observations from a re-analysis of the deposited data

How the results depend on the processing

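With 2 arrays a group, counts of receptors that passed depended on single arrays. With an array left out, the count was 0 to 2 in Id2-GFP+ against Id2-GFP- CDP (2 with all arrays), 4 to 5 in the same comparison of pre-CD8 (5), 0 to 2 for pre-CD8 against CDP in Id2-GFP- cells (2), 0 in Id2-GFP+ cells (0), 5 to 6 for the average over stages (6) and 0 for the difference between reporter differences (0). It was 1 to 2 for Id2-GFP+ pre-CD8 against Id2-GFP- CDP (2) and 3 to 5 for Id2-GFP- pre-CD8 against Id2-GFP+ CDP (5); alternatives for these crossed comparisons were chosen after seeing the data. In the same order, the block of brighter and dimmer arrays gave 3, 8, 4, 1, 7, 5, 7 and 6, quantile normalization 2, 7, 2, 1, 7, 3, 3 and 5, and the replicate block by the numbers of the titles 1, 4, 2, 0, 5, 0, 1 and 5. The replicate block ended the calls of Tlr13 in both reporter comparisons and of Tlr4 in the average and in the first crossed comparison, and changed no other receptor's call in these 8 comparisons. With the groups fitted alone the pre-CD8 reporter count was 4, and with the dimmest genes left out the difference between reporter differences had 1. The cause of these shifts was not tested. The numbers join arrays of opposite brightness across classes, and the crossed pairing there is the brightness block. Over all genes, in the same order, the counts were 119, 1249, 324, 0, 1261, 29, 357 and 975. They became 1566, 4822, 2486, 414, 5167, 1492, 3154 and 4376 with the brightness block, 207, 2567, 858, 24, 2677, 202, 917 and 2101 with quantile normalization, and 85, 838, 157, 0, 747, 6, 208 and 642 with the replicate block. Without 1 array they fell as low as 35, 466, 77, 0, 568, 2, 77 and 436, and with the dimmest genes left out 8 passed between stages in Id2-GFP+ cells and 50 for the difference. Of 944 single receptor values under an alternative 10 changed sign, in results that passed in no setting. With an array left out, Tlr2 between the CDP classes ran from -0.0682 to 0.259 and Tlr7 from -0.800 to 0.137. Between stages Tlr13 in Id2-GFP- cells ran from -0.144 to 0.151 (-0.0504 with quantile normalization) and Tlr7 in Id2-GFP+ cells from -0.909 to 0.0287. The difference between reporter differences of Tlr4 ran from -0.534 to 0.158, and Tlr6 in Id2-GFP+ pre-CD8 against Id2-GFP- CDP from -0.0516 to 0.117. The other single receptor values in these 8 comparisons kept their direction. Array signal was not set against a background here, which limits what can be said of dim probe sets such as that of Tlr8.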
